A study of Mus musculus with 8 samples.

Results

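Macrophages given lipopolysaccharide (LPS), a component of the bacterial cell wall, were compared directly with macrophages given interleukin 4 (IL-4), a cytokine of type 2 immunity. The comparison held 4 of the 8 RNA sequencing libraries of the study, chosen by their labels: 2 of the LPS group and 2 of the IL-4 group, in each group the replicates numbered 1 and 3. All cells were mouse bone marrow-derived macrophages (BMDMs), which are grown in culture from bone marrow precursors. The LPS group had 100 ng/ml LPS for 4 h and no IL-4, and the IL-4 group had 20 ng/ml IL-4 for 24 h and no LPS. Of the other groups, the control had neither agent, and the group called IL-4 then LPS had 20 ng/ml IL-4 for 24 h, a wash, and 100 ng/ml LPS for 4 h, with 2 libraries each. Strain, age, the number of animals and the agent used to grow the cells are not given in the sources used here. Agent and time of exposure differed together between the 2 groups compared, so their parts in any difference cannot be told apart. The series title speaks of trained immunity, where an early exposure leaves cells changed for the next, and the contrast below sets side by side the stimuli that are classically used for the opposite poles of macrophage activation.

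As background, LPS is sensed by Tlr4 with Cd14 and Ly96 and acts through NF-kB, AP-1 and interferon regulatory factors. This classical activation is known for inflammatory cytokines, nitric oxide made from arginine, itaconate and interferon-stimulated genes. IL-4 is sensed by receptors that contain Il4ra and acts mainly through Stat6. This alternative activation is known in the mouse for Arg1, Retnla, Chil3, Mrc1 and galactose-type lectins, and for the transcription factors Egr2, Irf4, Pparg and Myc.

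The LPS libraries held 8689368 and 9212153 counts and the IL-4 libraries 9006361 and 9422396. In a principal component analysis of these 4 libraries the first component held 85.8% of the variance and separated LPS from IL-4, and the second held 10% and separated the replicate numbers. Replicate 1 libraries held Xist reads and no reads of the Y-linked genes, and replicate 3 libraries the reverse, so the libraries of a group differed in sex as well as in number. Scaling mattered. The factors of the trimmed mean of M-values (TMM) were 0.823 and 0.786 for LPS and 1.246 and 1.172 for IL-4, and levels below are on that scale, in CPM, counts scaled to a common library total. Macrophage markers were present in all libraries: the 10 markers summed to 24800 and 27400 CPM after LPS and to 15900 and 21900 CPM after IL-4.

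After LPS, most genes of cytokines, chemokines and interferon responses were higher than after IL-4, as were single enzymes such as Nos2 and Ptgs2. After IL-4, a small set of alternative activation genes, most cell cycle genes and many genes of lipid metabolism were higher than after LPS. Of 12234 genes tested, 2716 (22.2%) were called higher after LPS and 2425 (19.8%) higher after IL-4, where called means an adjusted p under 0.05 in edgeR's quasi-likelihood test. The shares of 22.2% and 19.8% are the background for the counts of list members below, and a list near them is no result of its own. At least 2-fold differences were called for 1841 genes (15.0%) higher after LPS and for 1532 (12.5%) higher after IL-4. The side with LPS held the larger differences: 231 genes were at least 32-fold higher after LPS and 40 after IL-4. Of all calls, 52.8% were higher after LPS, but 21.7% were with library size as the only scaling and 34.7% with upper-quartile factors, since the median log2 difference of all genes was -0.05, -0.64 and -0.34 on these scales. Differences below are log2 values of LPS minus IL-4, each ± its standard error (SE), so positive values are higher after LPS. The labels do not name animals, but the 2 libraries of a group differed in sex, so they did not share an animal. The p-values rest on the spread between libraries within groups, estimated over all groups together. That spread includes any difference between the sexes.

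**Figure D1:**
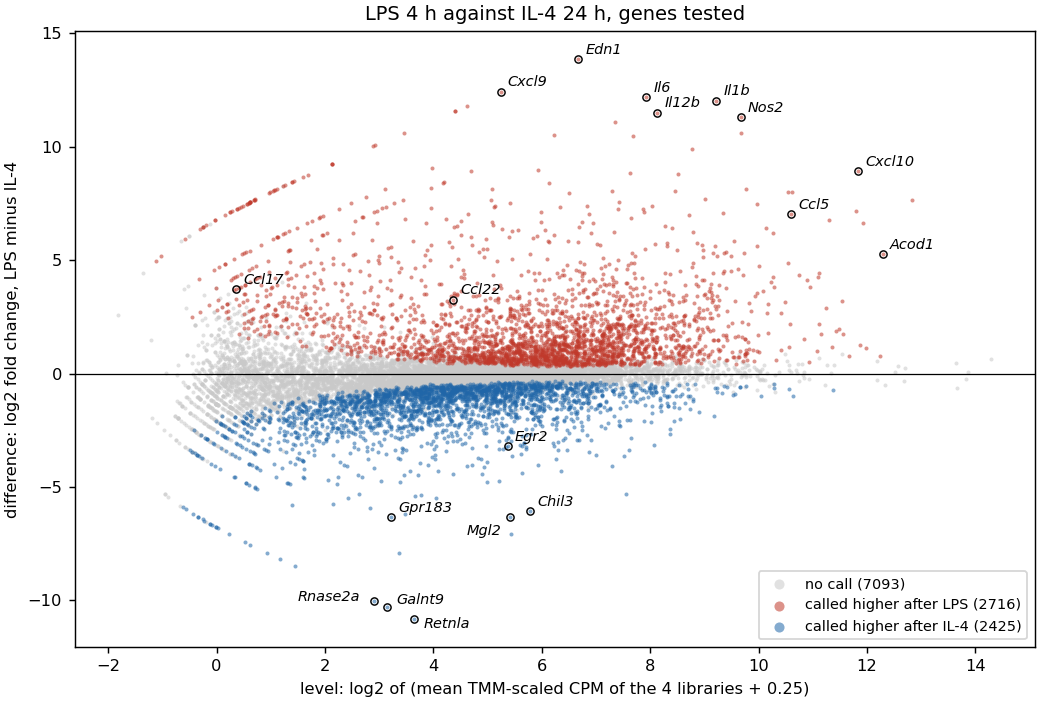
Difference between LPS and IL-4 (y axis, log2 fold change) against level (x axis, log2 of the mean CPM of the 4 libraries plus 0.25) for the 12234 genes tested, with 2716 called higher after LPS in red and 2425 called higher after IL-4 in blue. The largest fitted positive differences reach beyond 12 (Edn1, Cxcl9, Il6, Il1b), while negative differences beyond -6.31 are few and include Retnla, Rnase2a and Galnt9.

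Of 21 tested inflammatory cytokines, 18 were called higher after LPS and 0 after IL-4, with a median difference of 7.14, or of 5.46 with genes without reads set to the read floor. Il6, interleukin 6, stood at 410 and 560 CPM in LPS replicates 1 and 3, and held 2 reads over the IL-4 libraries, both in replicate 1, a ratio of 5398 (95% counting interval 1494 to 44580). Il1b, the precursor of interleukin 1 beta, stood at 1355 and 1018 CPM after LPS and at 0.179 and 0.363 CPM after IL-4 (12.03 ± 0.64, adjusted p 1.23e-05). Its untreated libraries, at 2.68 and 1.19 CPM, lay above both IL-4 libraries. Il1a, interleukin 1 alpha, stood at 390 and 262 CPM after LPS against 3 reads after IL-4, a ratio of 2414 (825.5 to 11710). Il12b, the subunit shared by interleukins 12 and 23, stood at 319 and 805 CPM after LPS and at 0.0893 and 0.272 after IL-4 (11.50 ± 0.91, adjusted p 5.13e-05). Il12a, the partner that makes interleukin 12, was at 12.5 and 30.4 CPM after LPS without a read after IL-4, at least 159-fold higher. Tnf, tumour necrosis factor, differed by 6.21 ± 1.05 (adjusted p 0.00249), at 1542 and 3338 CPM after LPS and 10.98 and 55.03 CPM after IL-4. Replicate 3 was the higher Tnf library in both groups. Il10, an anti-inflammatory cytokine, was also higher after LPS (6.81 ± 1.21, adjusted p 0.00302), at 37.2 and 6.22 CPM against 0.179 and 0.181. The LPS and IL-4 libraries did not overlap in any of these genes. For Il6, Il1b, Il1a, Il12b and Il12a this was a condition of their place among the 12 largest differences. With 2 libraries per group it is no separate evidence.

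Chemokines showed the same direction, with 17 of 22 called higher after LPS and 2 higher after IL-4 (0 without LPS replicate 1 or IL-4 replicate 3, 1 without LPS replicate 3). Cxcl10, which attracts activated T cells, stood at 7620 and 7034 CPM after LPS and 4.999 and 25.02 CPM after IL-4 (8.93 ± 1.02, adjusted p 0.000325). Its relatives Cxcl9 and Cxcl11 held no read after IL-4 and were at least 557-fold and at least 306-fold higher after LPS. Cxcl11 was uneven within the LPS group, at 70.4 and 12.6 CPM. The gene annotation labels Cxcl11, and also Clec7a (given below), a polymorphic pseudogene, which codes for protein in some strains only. Whether they code for protein in these cells is not known here. Ccl5, a chemokine for T cells and monocytes, stood at 2607 and 3543 CPM against 7.86 and 39.5 (7.02 ± 0.84, adjusted p 0.000407). Cxcl3, a neutrophil chemokine, stood at 82.9 and 217 CPM after LPS against 2 reads after IL-4, a ratio of 1670 (461.7 to 13800). The replicates 3 of the control and IL-4 groups were the higher ones for Cxcl10 and Ccl5, but all remained far below both LPS libraries. Ccl6 was lower after LPS, at 182 and 197 CPM against 312 and 322 (-0.74 ± 0.18, adjusted p 0.0126, and 0.0651 without LPS replicate 1 or 0.0539 without IL-4 replicate 3).

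Among 13 chemokine receptors, 4 were called in each direction (2 higher after IL-4 without LPS replicate 3). Over all genes the shares called were 22.2% and 19.8%. Ccrl2, a receptor that binds chemerin without signalling, was higher after LPS, at 906 and 1393 CPM against 12.9 and 33.1 (5.64 ± 0.51, adjusted p 0.000107). The formyl peptide receptor Fpr2, one of the genes often used to mark classically activated macrophages, was at 82.5 and 169 CPM after LPS and at 0 and 2.45 CPM after IL-4 (6.67 ± 1.18, adjusted p 0.003, and 13.09 without IL-4 replicate 3, whose partner held no read). Cxcr4 and Ccr2, which hold cells in the marrow and draw monocytes to inflamed tissue, were lower after LPS, as were Ccr1 (-1.24, adjusted p 0.0167) and Cx3cr1 (-1.93, adjusted p 0.0111). The call of Ccr1 was lost without LPS replicate 3 (0.0729) or IL-4 replicate 1 (0.0695). Cxcr4 stood at 9.80 and 6.08 CPM after LPS and at 165 and 145 CPM after IL-4 (-4.29 ± 0.26, adjusted p 1.82e-05), and the untreated libraries were higher still, at 303 and 222 CPM. Ccr2 stood at 2.10 and 1.24 CPM against 11.9 and 15.6 (-3.03 ± 0.50, adjusted p 0.0022).

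Nos2, which makes nitric oxide from arginine (chromosome 11, 78920787 to 78960254, mm10), stood at 1914 and 1338 CPM after LPS and at 0.446 and 0.816 CPM after IL-4, a difference of 11.30 ± 0.36 (adjusted p 5.18e-06). Gch1, which starts the synthesis of the cofactor of this enzyme, was higher too, at 223 and 369 CPM against 30.0 and 47.3 (2.94 ± 0.35, adjusted p 0.00041). Slc7a2, an arginine transporter, was at 869 CPM in both LPS libraries and at 50.9 and 61.0 CPM after IL-4 (3.96 ± 0.24, adjusted p 1.79e-05). Arg1, arginase 1, which uses the same substrate, went the other way with few reads. It held no read after LPS and stood at 3.57 and 1.18 CPM after IL-4, at least 11.4-fold higher after IL-4 (adjusted p 0.0184), and its call was lost without LPS replicate 1 (0.0576), LPS replicate 3 (0.0633) or IL-4 replicate 1 (0.0637). Of the 26 tested genes of arginine, nitric oxide and polyamine metabolism, 7 were called in each direction, near the 22.2% and 19.8% of all genes. With library size as the only scaling, 13 were called higher after IL-4. Among those higher after IL-4 were the polyamine oxidase Paox (-2.52 ± 0.36, adjusted p 0.00102) and the polyamine enzyme Amd1 (-1.26 ± 0.18, adjusted p 0.00112).

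Further enzymes of classical activation were on the LPS side. Acod1, which makes itaconate, stood at 9184 and 10320 CPM after LPS and at 59.7 and 445 CPM after IL-4 (5.27 ± 1.02, adjusted p 0.00471). The IL-4 libraries of Acod1 differed from each other more than the LPS libraries did, and the control libraries, at 79.5 and 320 CPM, were spread alike. Ptgs2, the inducible cyclooxygenase, stood at 1420 and 1859 CPM against 0.714 and 1.36 (10.61 ± 0.41, adjusted p 8.56e-06), and Ptges, the prostaglandin E synthase downstream of it, at 82.9 and 103 CPM against 3.12 and 6.07 (4.33 ± 0.48, adjusted p 0.000289). The constitutive cyclooxygenase Ptgs1 was the reverse, at 6.86 and 3.32 CPM after LPS and 56.3 and 29.0 CPM after IL-4 (-3.07 ± 0.52, adjusted p 0.00252). Of 23 prostaglandin and leukotriene genes, 3 were called higher after LPS and 7 higher after IL-4 (4 without IL-4 replicate 1).

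Edn1, the precursor of the vasoconstrictor endothelin 1 (chromosome 13, 42301476 to 42307990), was among the genes without a read after IL-4. It stood at 223 and 185 CPM after LPS and held no read after IL-4, at least 1508-fold higher (adjusted p 1.26e-05). Adamts4, a protease that cleaves aggrecan, was at 57.7 and 39.5 CPM against no read, at least 360-fold higher. Shisa3 was at 29.1 and 54.2 CPM against no read, at least 309-fold higher. Of 40 tested matrix protease, coagulation and vascular genes, 18 were called higher after LPS and 6 higher after IL-4 (3 without LPS replicate 1). Serpinb2, a plasminogen activator inhibitor, held 2 reads after IL-4 and 16.5 and 15.6 CPM after LPS, a ratio of 179 (48.88 to 1483). Thbd, thrombomodulin, an anticoagulant surface protein, was higher after IL-4, at 16.96 and 8.61 CPM against 1.96 and 0.553 (-3.34 ± 0.60, adjusted p 0.0033).

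Every one of the 50 tested genes of the type I interferon response was called higher after LPS, against 22.2% of all genes, with a median difference of 4.42. Rsad2, an antiviral enzyme known as viperin, stood at 15720 and 13140 CPM after LPS and at 30.0 and 115 CPM after IL-4 (7.64 ± 0.86, adjusted p 0.000298). Ifi205, a member of the Ifi200 family, stood at 769 and 687 CPM against 0.625 and 2.63 (8.80 ± 0.57, adjusted p 2.37e-05). Mx1, an antiviral GTPase, stood at 2464 and 1526 CPM against 7.23 and 14.9 (7.5 ± 0.54, adjusted p 3.50e-05). For each of these the LPS libraries lay far above both IL-4 libraries, and the replicate 3 library was the higher one after IL-4. Of 17 guanylate-binding proteins and immunity-related GTPases, which attack compartments that hold microbes, 15 were called higher after LPS and 0 after IL-4 (median 5.71). Gbp5 stood at 3187 and 3063 CPM against 3.30 and 21.1 (8.0 ± 1.02, adjusted p 0.000591). Of 22 genes of MHC class I presentation, 19 were called higher after LPS and 2 higher after IL-4 (median 1.93), among them the transactivator Nlrc5 (3.95 ± 0.24, adjusted p 1.82e-05) and the peptide transporter Tap1 (3.76 ± 0.36, adjusted p 0.000138). The 2 on the IL-4 side were the chaperones Calr (-0.65 ± 0.14, adjusted p 0.00735) and Pdia3 (-0.44 ± 0.14, adjusted p 0.036), and the call of Pdia3 was lost without each of the 8 libraries (adjusted p 0.0507 to 0.191).

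Promoters were read from RefSeq (build GRCm38.p6) for 4 genes that carry the contrast, 1 of the LPS side and 3 of the IL-4 side, as the 250 bases before the annotated start, 5′ to 3′ on the strand of the gene. Capitals mark matches to 5 short motifs, searched on both strands in a window that ran 50 bases past the start: interferon response element type (GAAANNGAAA), NF-kB type (GGGANNTTCC or GGGANNTCCC), AP-1 type (TGANTCA), STAT6 type (TTCNNNNGAA) and TATA box (TATAAA). The search makes no claim of binding.
Cxcl10 promoter, chr5:92348890-92349139, minus strand: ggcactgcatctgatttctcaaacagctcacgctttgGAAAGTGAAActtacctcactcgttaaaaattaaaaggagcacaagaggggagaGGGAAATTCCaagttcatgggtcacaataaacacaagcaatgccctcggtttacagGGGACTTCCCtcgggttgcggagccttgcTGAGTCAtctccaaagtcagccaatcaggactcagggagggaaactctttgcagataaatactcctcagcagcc
Retnla promoter, chr16:48842359-48842608, plus strand: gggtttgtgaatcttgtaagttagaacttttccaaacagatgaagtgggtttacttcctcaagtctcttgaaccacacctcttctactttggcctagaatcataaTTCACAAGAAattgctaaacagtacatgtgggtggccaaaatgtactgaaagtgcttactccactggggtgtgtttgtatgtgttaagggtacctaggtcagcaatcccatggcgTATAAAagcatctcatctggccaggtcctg
Chil3 promoter, chr3:106167565-106167814, minus strand: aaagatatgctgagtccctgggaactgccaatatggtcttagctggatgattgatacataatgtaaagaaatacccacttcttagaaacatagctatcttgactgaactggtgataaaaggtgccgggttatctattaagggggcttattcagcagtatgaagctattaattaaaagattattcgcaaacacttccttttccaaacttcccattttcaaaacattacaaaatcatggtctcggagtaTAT
Mgl2 promoter, chr11:70130107-70130356, plus strand: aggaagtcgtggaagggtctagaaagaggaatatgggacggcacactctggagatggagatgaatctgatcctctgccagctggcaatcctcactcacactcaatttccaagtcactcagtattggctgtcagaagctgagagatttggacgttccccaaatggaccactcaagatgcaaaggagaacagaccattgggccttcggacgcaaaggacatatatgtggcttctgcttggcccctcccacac
The Cxcl10 promoter held an interferon response element type match at -213 to -204 from the start, NF-kB type matches at -159 to -150 and at -103 to -94, and an AP-1 type match at -74 to -68. The Retnla promoter held a STAT6 type match at -145 to -136 and a TATA box at -30 to -25. The Chil3 promoter held a TATA box that spans the annotated start, from -3 to 3, and the Mgl2 window held none of these letters.

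Of the 12234 genes, 9129 were matched to a promoter. The interferon response element type was found in 3.4% of all matched promoters, in 6.9% of those of genes called higher after LPS and in 1.89% of those called higher after IL-4. Among genes at least 8-fold higher after LPS the share was 15.8% (67 of 424), and among genes at least 8-fold higher after IL-4 it was 0.7% (1 of 142). The NF-kB type was found in 2.38% of all promoters and in 5.9% and 1.41% of the same 2 sets. TATA boxes were found in 6.78% of all, and in 15.33% and 9.86%. AP-1 type matches were found in 4.85% of all, and in 11.32% and 5.63%. The STAT6 type differed little between the sets, at 5.5% of all promoters, 6.84% of those at least 8-fold higher after LPS and 7.04% of those at least 8-fold higher after IL-4. The promoters of genes at least 8-fold higher after LPS also had fewer CpG sites, with a median of 9 against 21 for all and 19.5 for the IL-4 side, and a lower median GC content, at 54.3% against 61.0% and 61.7%, so base composition moved with the motif shares and its part in them was not tested.

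More of the sensing and signalling genes of LPS were called on the LPS side than on the IL-4 side. Their median of 0.59 was 0.01 with library size as the only scaling and 0.31 with upper-quartile factors. On library size alone, 15 were called higher after LPS and 7 higher after IL-4. Cd14, the LPS co-receptor, stood at 2368 and 2269 CPM after LPS and at 171 and 155 CPM after IL-4 (3.83 ± 0.20, adjusted p 1.23e-05), and the untreated libraries lay between, at 475 and 353 CPM. Tlr4 itself was at 107 and 86.1 CPM against 83.0 and 81.1, and its difference of 0.23 ± 0.19 did not pass (adjusted p 0.352) and was -0.35 with library size as the only scaling and -0.05 with upper-quartile factors. Of 34 tested LPS receptor and signalling genes, 18 were called higher after LPS and 4 higher after IL-4 (2 without LPS replicate 1 or either IL-4 replicate). Of 19 genes listed as NF-kB subunits and inhibitors, 17 were called higher after LPS and 0 after IL-4 (median 2.84). Among the 17 were Nfkbiz (6.39 ± 0.84, adjusted p 0.000691), Tnfaip3 (4.52 ± 0.47, adjusted p 0.000212) and Nfkbie (3.81 ± 0.66, adjusted p 0.00273). Of 27 Toll-like receptor and inflammasome genes, 19 were called higher after LPS and 3 higher after IL-4. The inflammasome sensor Nlrp3 stood at 510 and 927 CPM against 28.6 and 33.7 (4.53 ± 0.36, adjusted p 5.05e-05), and the interleukin 1 receptor antagonist Il1rn at 2433 and 891 CPM against 37.8 and 44.7 (5.33 ± 0.56, adjusted p 0.000212). Tlr13, a sensor of bacterial ribosomal RNA, was higher after IL-4, at 497 and 443 CPM against 167 and 184 (-1.42 ± 0.16, adjusted p 0.000334).

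Of 15 interferon regulatory factors and STATs, 12 were called higher after LPS. Irf7 stood at 977 and 993 CPM against 16.3 and 28.7 (5.45 ± 0.32, adjusted p 1.66e-05) and Irf1 at 925 and 1127 CPM against 58.2 and 111 (3.60 ± 0.38, adjusted p 0.000207). Irf5, often named as a factor of classical activation, differed by 0.84 ± 0.15 (adjusted p 0.00365, and 0.142 with library size as the only scaling). Stat6, the main transducer of IL-4, was the single member higher after IL-4, at 238 and 244 CPM against 175 and 183 (-0.43 ± 0.14, adjusted p 0.0399). That call was lost without each library of the LPS, IL-4 and IL-4 then LPS groups (adjusted p 0.0631 to 0.152) and with DESeq2 (0.059).

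Among 25 genes of the IL-4 receptor and its signalling, 14 were called higher after LPS and 5 higher after IL-4 (2 without LPS replicate 3, 3 without LPS replicate 1 or either IL-4 replicate). The cytokine signalling inhibitors led the first group: Socs3 stood at 1233 and 820 CPM against 3.48 and 6.35 (7.70 ± 0.54, adjusted p 3.11e-05), Socs1 at 247 and 160 CPM against 0.982 and 3.63 (6.46 ± 0.48, adjusted p 4.18e-05), and Cish at 37.5 and 19.1 CPM against 0.268 and 0.997 (5.46 ± 0.61, adjusted p 0.000289). Cish and Socs2 are classically induced by cytokine receptors through STATs, and both lay higher after LPS than after IL-4. Il4ra was at 449 and 106 CPM after LPS and at 94.4 and 69.8 CPM after IL-4, a difference of 1.76 ± 0.63 that did not pass (adjusted p 0.0556). The difference was 2.45 without LPS replicate 3. Among fits with 2 libraries in each group, it passed with the replicate block (1.51, adjusted p 0.00522) and without the filter on low counts (1.70, adjusted p 1.15e-16). The far lower p without the filter came at nearly the same difference and with LPS libraries far apart. It is not read as stronger evidence, and its cause was not tested. Dok2, an adaptor that restrains tyrosine kinase signalling, was higher after IL-4, at 47.5 and 44.2 CPM against 4.62 and 0.829 (-4.07 ± 0.54, adjusted p 0.000703). Inpp5d, the phosphatase SHIP1, was at 184 and 179 CPM after IL-4 and 43.4 and 20.9 CPM after LPS (-2.50 ± 0.35, adjusted p 0.000918).

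Of 23 tested genes of MHC class II presentation and co-stimulation, 13 were not called, and the median difference was -0.02. The share of all genes called higher after LPS was 22.2%. In this list 8 were called higher after LPS, all of them co-stimulatory or checkpoint molecules: Cd40, Tnfsf9, Icosl, Cd83, Cd274, Tnfsf4, Cd86 and Cd80. Cd40 stood at 1187 and 1388 CPM against 4.55 and 14.5 (7.08 ± 0.70, adjusted p 0.000164). Cd86 stood at 130 and 93.1 CPM after LPS and at 15.8 and 11 CPM after IL-4 (3.06 ± 0.37, adjusted p 0.000437), and the untreated libraries, at 58.4 and 28.2 CPM, lay above both IL-4 libraries. Cd80 differed by 2.35 ± 0.64 (adjusted p 0.0209), and lost its call without LPS replicate 1 (1.44, adjusted p 0.13), IL-4 replicate 1 (0.0678) or IL-4 replicate 3 (0.0955). Of the class II genes proper, H2-DMa was called and these were not: the differences were -0.39 for H2-Aa, 0.18 for H2-Ab1, -0.33 for H2-Eb1, -0.18 for the invariant chain Cd74 and -0.08 for the transactivator Ciita. H2-DMa, a peptide loading gene, was higher after IL-4 (-1.0 ± 0.25, adjusted p 0.0146), but not without LPS replicate 1 (0.055), LPS replicate 3 (0.0655) or IL-4 replicate 3 (-0.64, adjusted p 0.0863). Vsir, the checkpoint protein VISTA, was the other gene on that side (-1.24 ± 0.14, adjusted p 0.000276).

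**Figure D2:**
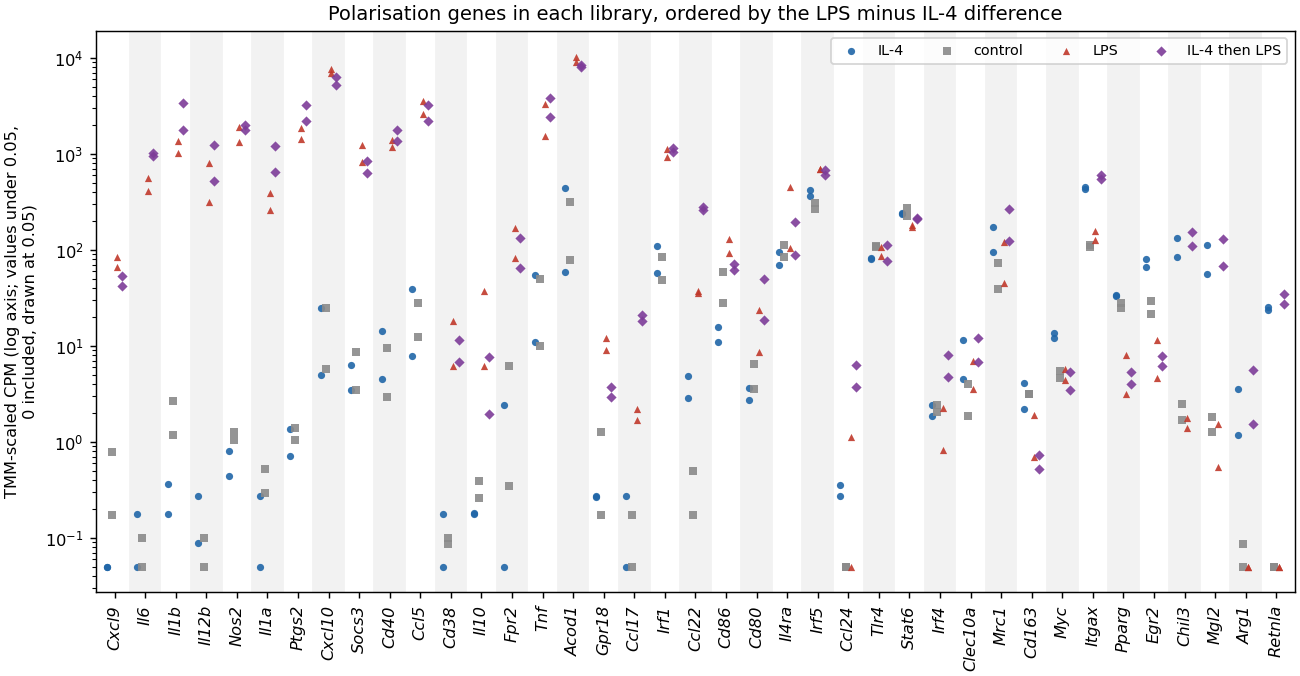
TMM-scaled CPM (y axis, log scale, values under 0.05 drawn at 0.05) of polarisation genes in each of the 8 libraries, 2 per group, ordered by the difference between LPS and IL-4. Genes at the left (Cxcl9, Il6, Il1b, Nos2) are high in both groups with LPS and low in IL-4 and control alike, while Retnla, Mgl2 and Chil3 at the right are high in both groups with IL-4.

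Of the 12 largest fitted differences at the IL-4 pole, 4 belonged to genes that were near 0 in LPS and control libraries alike. Retnla, a small secreted protein and a standard marker of alternative activation (ENSMUSG00000061100, chromosome 16), held no read in either LPS library or in either control library and stood at 23.5 and 25.8 CPM after IL-4, at least 118-fold higher than after LPS (adjusted p 5.08e-05). Rnase2a, an eosinophil-associated ribonuclease, held no read after LPS or in the control and stood at 13.9 and 14.96 CPM after IL-4, at least 69.2-fold higher (adjusted p 8.11e-05). Chil3, a chitinase-like secreted protein, stood at 84.9 and 132 CPM after IL-4 and at 1.40 and 1.796 CPM after LPS (-6.07 ± 0.36, adjusted p 1.66e-05). Mgl2, a galactose-type lectin, stood at 112 and 55.8 CPM against 1.54 and 0.553 (-6.31 ± 0.60, adjusted p 0.000138). In these 4 genes no untreated library exceeded 2.51 CPM. Reads of Chil3, Mgl2 and Rnase2a may be shared with near-identical relatives, since how such reads were counted is not known here.

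Further genes of alternative activation were higher after IL-4 by smaller steps. Itgax, the integrin CD11c, stood at 437 and 454 CPM after IL-4, 158 and 129 CPM after LPS and 113 and 108 CPM in the control (-1.64 ± 0.15, adjusted p 0.000111). Dcstamp, a protein of macrophage fusion, stood at 27.9 and 35.5 CPM after IL-4, 4.90 and 4.01 CPM after LPS and 4.33 and 2.57 CPM in the control (-2.83 ± 0.28, adjusted p 0.000157). The transcription factor Egr2 stood at 67.4 and 81.3 CPM after IL-4, 21.4 and 29.5 CPM in the control and 4.62 and 11.5 CPM after LPS (-3.20 ± 0.38, adjusted p 0.000389). Pparg, a lipid-sensing nuclear receptor, stood at 34.4 and 33.5 CPM after IL-4 and 7.98 and 3.18 CPM after LPS (-2.60 ± 0.36, adjusted p 0.000838). Its control libraries, at 24.7 and 28.4 CPM, lay nearer to IL-4 than to LPS. Myc stood at 12.1 and 13.8 CPM after IL-4, 5.74 and 4.42 CPM after LPS and 4.67 and 5.44 CPM in the control (-1.34 ± 0.28, adjusted p 0.00705). None of these overlapped between LPS and IL-4, which is a weak criterion with 2 libraries per group, and the share of all genes without overlap is not given here. In all, the list of alternative activation genes had 42 tested members, of which 20 were called higher after IL-4, 10 were called higher after LPS and 12 were not called, with a median of -1.13. The list was drawn up with earlier results of these libraries known and is not independent evidence of its direction.

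The 10 alternative activation genes that were higher after LPS were Ch25h, Cish, Cd83, Slc7a2, Ccl17, Ccl22, Jag1, Socs2, Tgm2 and Klf4. Ccl22, a chemokine for Ccr4-bearing T cells that is commonly listed as an IL-4 target, stood at 36.1 and 37.9 CPM after LPS, 4.82 and 2.90 CPM after IL-4 and 0.173 and 0.495 CPM in the control (3.25 ± 0.25, adjusted p 4.66e-05). The IL-4 libraries of Ccl22 were thus above both control libraries and below both LPS libraries. After IL-4 then LPS it stood at 280 and 263 CPM, above either agent alone. Ccl17, the other ligand of Ccr4, was low in all 4 libraries compared, at 1.68 and 2.21 CPM after LPS and 3 reads after IL-4, a ratio of 14.4 (4.457 to 74.17, adjusted p 0.0087). It held no read in IL-4 replicate 1, and its fitted difference of 3.72 was 7.09 without IL-4 replicate 3. It stood at 21.2 and 18.2 CPM after IL-4 then LPS. Ch25h, cholesterol 25-hydroxylase, was at 73.2 and 29.3 CPM after LPS and held 2 reads after IL-4, a ratio of 568 (156.7 to 4700).

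Several textbook markers of alternative activation did not pass the test with TMM scaling and the count filter. The mannose receptor Mrc1 was at 172 and 96.6 CPM after IL-4 and at 121 and 45.3 CPM after LPS, so the libraries overlapped (-0.69 ± 0.56, adjusted p 0.35). Without the filter on low counts the adjusted p was 0.00062 at nearly the same difference (-0.745), and the cause of that change was not tested. IL-4 was the higher group within each replicate number. Clec10a, a close relative of Mgl2, was at 11.7 and 4.53 CPM against 7.0 and 3.59 (-0.62 ± 0.58, adjusted p 0.426), and its difference was 0.19 without IL-4 replicate 1. Irf4 was at 1.88 and 2.45 CPM against 2.24 and 0.829 (-0.49 ± 0.53, adjusted p 0.489), and the difference was 0.05 without LPS replicate 3. Cd163, a scavenger receptor for haemoglobin, was at 2.23 and 4.08 CPM against 0.70 and 1.93 (-1.25 ± 0.56, adjusted p 0.109, and -1.83 with an adjusted p of 0.0214 with library size as the only scaling). Ccl24, an eosinophil chemokine, was at 0.357 and 0.272 CPM after IL-4 and at 1.12 and 0 CPM after LPS (0.80 ± 1.22, adjusted p 0.633, and -4.62 without LPS replicate 1), but at 6.42 and 3.76 CPM after IL-4 then LPS. For Mrc1 the replicate 1 library was the higher one in both groups.

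The untreated libraries place each difference relative to cells that had neither agent. Among the 1841 genes at least 2-fold higher after LPS, the control mean was nearer to IL-4 in 1801 (97.8%) and nearer to LPS in 40, on a log2 scale with 0.25 CPM added. Among the 1532 genes at least 2-fold higher after IL-4, the control was also nearer to IL-4 in 1448 (94.5%), and nearer to LPS in 84. Nearer does not mean equal, and genes such as Ccl22 and Egr2 differed between IL-4 and control while lying nearer to IL-4. At 8-fold or more the control was nearer to LPS in 17 of 203 genes higher after IL-4 and in 6 of 589 genes higher after LPS. Of the 12 largest fitted differences on the IL-4 side, Retnla, Rnase2a, Mgl2 and Chil3 had the control at the LPS level, and the others, Galnt9, Zfp395, Cnr2, Gpr183, Bmf, Ccsap, Lpin1 and Engase, had it nearer to IL-4.

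Cnr2, cannabinoid receptor 2, stood at 85.4 and 86.0 CPM after IL-4, 74.3 and 79.7 CPM in the control and 0.28 and 0.967 CPM after LPS (-7.07 ± 0.35, adjusted p 1.06e-05). Gpr183, a receptor that guides cells along oxysterols made with the help of Ch25h, stood at 20.6 and 15.2 CPM after IL-4, 21.6 and 19.1 CPM in the control and held 3 reads after LPS, a ratio of 86.0 (29.22 to 418.9). All 3 reads were in LPS replicate 1, without which the fitted difference of -6.33 was -10.40. Zfp395 stood at 22.3 and 18.0 CPM after IL-4 against 1 read after LPS, a ratio of 290 (51.86 to 11500). Bmf, a pro-apoptotic gene of the Bcl2 family, stood at 20.4 and 22.8 CPM after IL-4 and 0.42 and 0.138 CPM after LPS, below the 38.2 and 40.8 CPM of the control (-6.21 ± 0.42, adjusted p 2.82e-05). Lpin1, a lipid phosphatase, stood at 34.3 and 29.4 CPM after IL-4, 33.6 and 26.9 CPM in the control and 0.70 and 0.691 CPM after LPS (-5.49 ± 0.34, adjusted p 2.01e-05). In Cnr2, Gpr183 and Lpin1 the IL-4 and control levels differed by far less than either did from LPS.

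**Figure D3:**
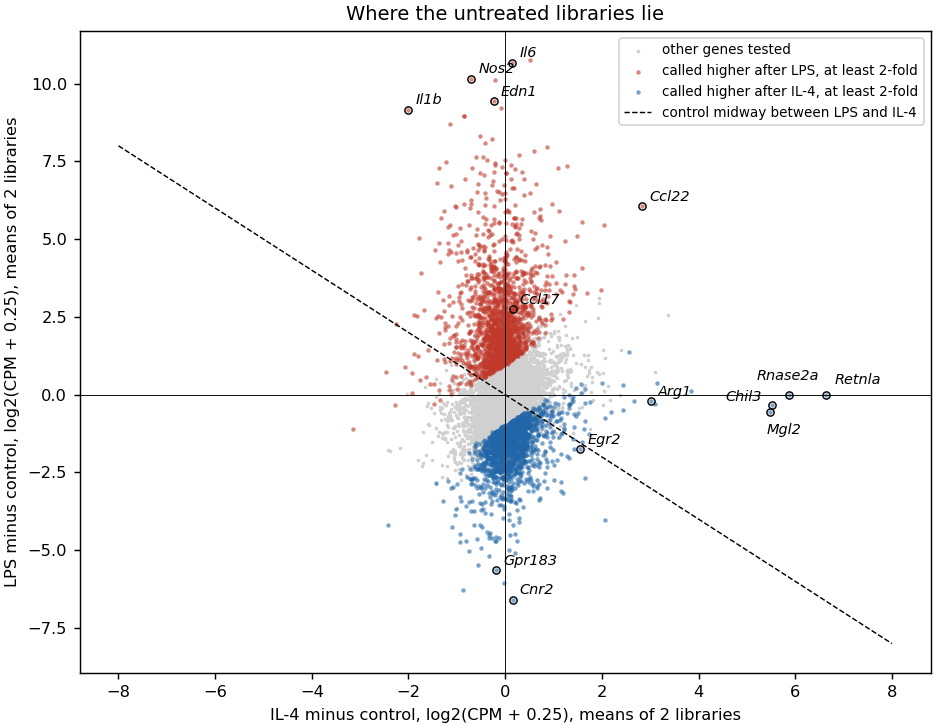
LPS minus control (y axis) against IL-4 minus control (x axis), both in log2(CPM + 0.25) as means of 2 libraries, for the genes tested, with at least 2-fold calls of the direct contrast in red and blue. Most coloured genes lie on the side of the dashed line where the control is nearer to IL-4 than to LPS (97.8% of those higher after LPS and 94.5% of those higher after IL-4), while Retnla, Rnase2a, Chil3 and Mgl2 lie far out along the horizontal axis.

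In a smaller set of genes the control lay between the agents, without overlap of any library. The order LPS above control above IL-4 held for 789 genes (6.45%), of which 693 were called, and IL-4 above control above LPS for 729 (5.96%), of which 600 were called. The smaller of the steps was at least 1 on the log2 scale for 70 and for 31 of these genes. On the first side stood Cxcl9, Rnf225, Il1b, Serpinb2, Cxcl3 and the scavenger receptor Marco. Marco was at 5.32 and 29.0 CPM after LPS, 0.692 and 3.66 CPM in the control and 0.268 and 0.453 CPM after IL-4 (5.52 ± 1.15, adjusted p 0.00656). On the second side stood Galnt9, Dok2, Egr2, Ptgs1, Hip1 and Matk. Galnt9, a glycosyltransferase, was at 14.1 and 20.4 CPM after IL-4, 2.34 and 6.23 CPM in the control and without a read after LPS, at least 82.6-fold higher after IL-4 (adjusted p 0.000395). Hip1, a gene of clathrin-coated vesicles, was at 119 and 110 CPM after IL-4, 46.5 and 53.5 CPM in the control and 11.8 and 2.35 CPM after LPS (-4.02 ± 0.66, adjusted p 0.00203). Matk, a kinase that restrains Src family kinases, was at 56.4 and 36.5, 22.3 and 16.7, and 8.68 and 9.53 CPM in the same groups (-2.35 ± 0.26, adjusted p 0.000261).

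Of 40 further transcription factors, 16 were called higher after LPS and 14 higher after IL-4. Mycl, a relative of Myc, was at 51.2 and 83.0 CPM after LPS and 0 and 0.453 CPM after IL-4 (8.14 ± 0.57, adjusted p 3.11e-05). Batf2, a factor tied to interferon gamma and LPS responses, was at 125 and 111 CPM against 1.34 and 2.18 (6.06 ± 0.44, adjusted p 3.74e-05). The factors Cebpa and Tfeb were on the IL-4 side, with the control high as well. Cebpa stood at 328 and 351 CPM after IL-4, 212 and 215 CPM in the control and 21.8 and 32.2 CPM after LPS (-3.65 ± 0.21, adjusted p 1.62e-05). Tfeb, a regulator of lysosome genes, stood at 86.0 and 94.8 CPM against 6.72 and 14.9 (-3.06 ± 0.47, adjusted p 0.00151).

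Cell cycle genes were higher after IL-4: of 51 tested, 30 were called higher after IL-4, against 19.8% of all genes, and 4 higher after LPS, with a median of -1.39 (-1.98 with library size as the only scaling). The count of 30 was 18 without LPS replicate 3 and 19 without IL-4 replicate 1. E2f2, a transcription factor of the cycle, stood at 73.3 and 48.3 CPM after IL-4, 54.6 and 48.4 CPM in the control and 3.08 and 1.38 CPM after LPS (-4.76 ± 0.39, adjusted p 6.44e-05). Rrm2, a subunit of ribonucleotide reductase, stood at 58.6 and 35.2 CPM against 5.74 and 4.01 (-3.26 ± 0.33, adjusted p 0.00018), and the phosphatase Cdc25b at 85.8 and 47.7 CPM against 7.84 and 5.39 (-3.33 ± 0.34, adjusted p 0.000183). Mki67, the gene of the proliferation antigen Ki-67, was not called, at 0.15. The members higher after LPS were the cyclins Ccnd2 and Ccne1, the kinase Cdk6 and the inhibitor Cdkn1a, which restrains the cycle. Ccnd2 was at 288 and 164 CPM after LPS against 1.25 and 1.45 (7.37 ± 0.40, adjusted p 1.26e-05) and Cdkn1a at 1416 and 2286 CPM against 155 and 158 (3.56 ± 0.28, adjusted p 4.86e-05).

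Of 34 fatty acid oxidation genes, 15 were called higher after IL-4 (26 with library size as the only scaling) and 5 higher after LPS (3 without IL-4 replicate 1), with a median of -0.49. Examples were the acyl transferase Crat at 99.4 and 101 CPM against 23.1 and 23.4 (-2.11 ± 0.12, adjusted p 1.43e-05) and the hydratase Echs1 at 81.9 and 98.5 CPM against 25.6 and 30.5 (-1.68 ± 0.18, adjusted p 0.000226). Of 36 cholesterol and fatty acid synthesis and efflux genes, 15 were called higher after IL-4 (8 without LPS replicate 1, 9 without IL-4 replicate 3, 24 with library size as the only scaling) and 4 higher after LPS, with a median of -0.50. Those 4 were 7 without LPS replicate 1 and 2 without LPS replicate 3 or either IL-4 replicate. The desaturase Scd2 stood at 360 and 234 CPM after IL-4 and 21.4 and 13.5 CPM after LPS (-4.08 ± 0.46, adjusted p 0.000304), while the cholesterol exporter Abca1 was higher after LPS, at 184 and 141 CPM against 49.99 and 59.56 (1.57 ± 0.23, adjusted p 0.00122). Of 33 tricarboxylic acid cycle and itaconate genes, 9 were called higher after IL-4 and 3 higher after LPS, against 19.8% and 22.2% of all genes. With library size as the only scaling these counts were 25 and 2. Among those higher after IL-4 was the cytosolic isocitrate dehydrogenase Idh1, at 289 and 263 CPM against 74.8 and 56.7 (-2.07 ± 0.23, adjusted p 0.000258). Of 51 nuclear oxidative phosphorylation genes, 2 and 3 were called higher after LPS and after IL-4, but 1 and 47 with library size as the only scaling and 24 higher after IL-4 with upper-quartile factors, where the median of -0.16 was -0.74 and -0.44. Leaving out any control, LPS or IL-4 library left 1 higher after LPS, and those higher after IL-4 numbered 1 without LPS replicate 1 and 0 without either IL-4 replicate. Of 12 mitochondrially encoded transcripts, 0 were called in edgeR's test, against 8 higher after IL-4 with library size as the only scaling, where the median of -0.03 was -0.62.

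Glycolysis and pentose phosphate genes were mixed, with 8 of 33 called higher after LPS and 4 higher after IL-4 (2 without either LPS replicate or without IL-4 replicate 1), but 6 and 16 with library size as the only scaling. The share called higher after LPS was thus near the 22.2% of all genes. Pfkfb3, which makes the activator of phosphofructokinase, was at 916 and 248 CPM after LPS and 44.5 and 27.2 CPM after IL-4 (4.02 ± 0.73, adjusted p 0.00346), and the hexokinase Hk2 at 285 and 181 CPM against 56.6 and 61.0 (1.99 ± 0.23, adjusted p 0.000326). Pfkfb4, a relative of Pfkfb3, was the reverse, at 19.7 and 21.6 CPM against 68.6 and 58.9 (-1.63 ± 0.18, adjusted p 0.000282).

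Uptake receptors were found on both sides: of 35 lectin and scavenger receptors, 16 were called higher after LPS and 5 higher after IL-4, and 13 and 14 with library size as the only scaling, where the median of 0.57 was -0.02. The high-affinity Fc receptor Fcgr1 stood at 372 and 290 CPM after LPS, 72.5 and 69.4 CPM in the control and 30.3 and 32.3 CPM after IL-4 (3.40 ± 0.20, adjusted p 1.58e-05). Clec4e, the receptor Mincle, stood at 2587 and 4644 CPM against 78.4 and 336 (4.12 ± 0.76, adjusted p 0.00368). Clec7a, the beta-glucan receptor Dectin-1, was higher after IL-4, at 674 and 606 CPM against 254 and 176 (-1.57 ± 0.24, adjusted p 0.00141), as was the fatty acid receptor Cd36 at 1481 and 1349 CPM against 697 and 722 (-1.0 ± 0.14, adjusted p 0.00102). Of 34 antioxidant and iron genes, 11 were called higher after LPS (7 without LPS replicate 3) and 4 higher after IL-4 (2 without IL-4 replicate 1), but 8 and 12 with library size as the only scaling. The siderophore-binding Lcn2 was at 43.8 and 27.2 CPM after LPS against 2 reads after IL-4, a ratio of 394 (108.6 to 3264), the cystine transporter Slc7a11 at 1066 and 1001 CPM against 140 and 76.2 (3.26 ± 0.53, adjusted p 0.00191) and the superoxide dismutase Sod2 at 1138 and 1589 CPM against 81.1 and 217 (3.19 ± 0.59, adjusted p 0.00387). The transferrin receptor Tfrc was higher after IL-4, at 53.9 and 57.5 CPM against 20.0 and 14.7 (-1.68 ± 0.26, adjusted p 0.00149).

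The remaining lists had medians near that of all genes, and their counts stand against 22.2% of all genes called higher after LPS and 19.8% after IL-4. Of 29 genes of endoplasmic reticulum chaperones and the unfolded protein response, 11 were called higher after IL-4 (7 without LPS replicate 3, 6 without IL-4 replicate 3) and 6 higher after LPS (3 without IL-4 replicate 1), with a median of -0.12. Of 44 lysosomal genes, 7 were called higher after IL-4 and 5 higher after LPS (3 without LPS replicate 1, 2 without IL-4 replicate 1), with a median of -0.07, and 31 and 2 with library size as the only scaling. Of 29 anti-inflammatory and feedback genes, 11 were called higher after LPS and 6 higher after IL-4, with a median of 0.18 that was -0.40 with library size and -0.10 with upper-quartile factors. Tsc22d3, a glucocorticoid-induced gene also known as Gilz, was on the IL-4 side, at 104 and 84.5 CPM against 11.3 and 8.84 (-3.22 ± 0.30, adjusted p 0.000129). Of 29 macrophage identity genes, 12 were called higher after LPS (6 without IL-4 replicate 1, 7 without LPS replicate 1 or IL-4 replicate 3) and 3 higher after IL-4, with a median of 0.13 that was -0.46 and -0.15 on the same scales. With library size as the only scaling, counts higher after IL-4 also moved for the endoplasmic reticulum list (20), macrophage identity (15), matrix and vascular genes (14), prostaglandin genes (12), feedback genes (11), class II and co-stimulation genes (9), IL-4 receptor genes (8) and LPS receptor genes (7).

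**Figure D4:**
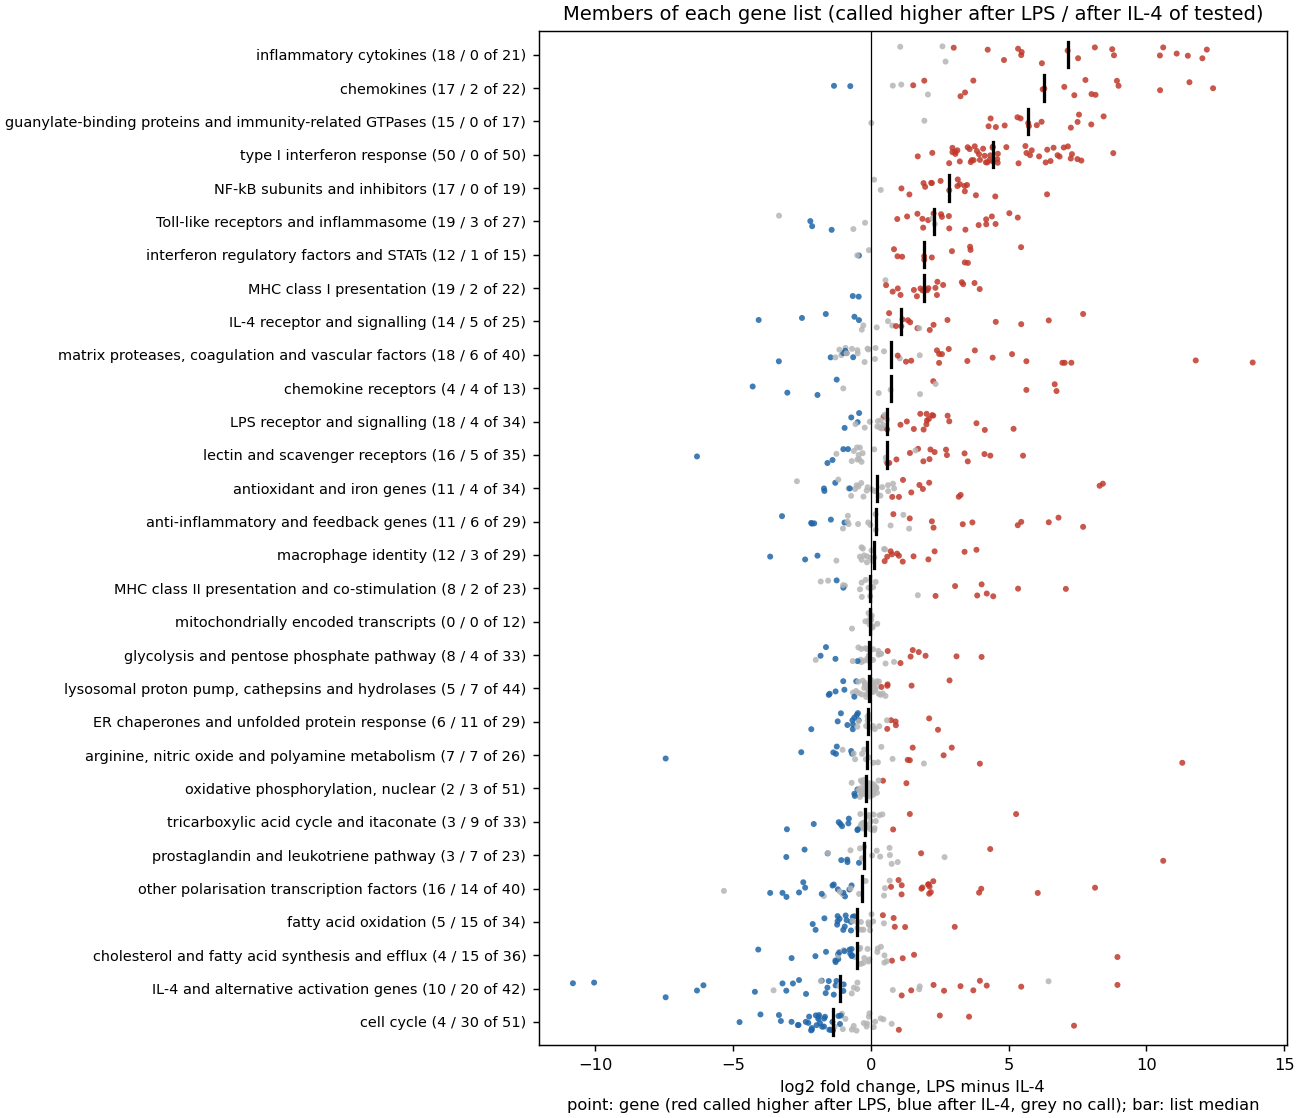
Difference between LPS and IL-4 (x axis, log2 fold change) for each tested member of the 30 gene lists, 1 row per list, with the list's median as a bar and the numbers called higher after LPS and after IL-4 beside its name. Cytokines, chemokines, GTPases and interferon genes lie to the right (medians 7.14, 6.27, 5.71 and 4.42), cell cycle and alternative activation genes to the left (-1.39 and -1.13), and most metabolic lists near 0.

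Markers of other cell types were mostly low, and some moved with the contrast. Dendritic cell markers, 9 in number, summed to 63.7 and 34.4 CPM after LPS and 11.7 and 6.98 CPM after IL-4, mainly through the actin-bundling gene Fscn1 at 35.3 and 24.6 CPM after LPS. Stromal markers, also 9, summed to 22 and 48.5 CPM against 6.07 and 5.71, mainly Pdgfrb. The 9 mast cell, basophil and eosinophil markers summed to 86.2 and 58.3 CPM against 18.6 and 16.6, mainly through Hdc, which makes histamine, while Epx, Fcer1a, Mcpt8 and Ms4a2 held no read in the 4 libraries. The 12 lymphocyte markers summed to 233 and 184 CPM against 418 and 374, nearly all Il7r, and Cd3d, Cd3e, Cd79a, Cd8a and Ncr1 were among those without a read. The 11 neutrophil and granulocyte precursor markers summed to at most 8.15 CPM and the 7 erythroid markers to at most 0.553 CPM. Fewer cells of a type and less RNA per cell cannot be told apart in bulk samples. Mitochondrial transcripts made up 1.07% and 1.14% of counts after LPS and 1.48% and 1.55% after IL-4, and the part of this in the differences above was not tested.

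The other 4 libraries give the same genes in a contrast whose fold changes use none of the LPS or IL-4 libraries. Both contrasts came from the same fit over all 8 libraries, with shared scaling and a shared estimate of spread, so their calls are not independent. IL-4 then LPS against control called 2719 genes (22.2%) higher and 2392 (19.6%) lower. Of the 2716 genes higher after LPS than after IL-4, 2105 were also higher after IL-4 then LPS than in the control, 17 were lower and 594 were not called. Of the 2425 genes higher after IL-4, 1625 were lower, 42 higher and 758 not called. Across the 12234 genes the 2 differences correlated with a Pearson r of 0.833 and a Spearman rho of 0.795, which describes these libraries, since genes are not independent replicates. In both contrasts the first group had LPS and the second had not, and the place of IL-4 was reversed.

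The 59 genes called in opposite directions were, in both contrasts, on the side of IL-4 or away from it, whichever side LPS was on. They were named after their values were seen, apart from those named above. On the IL-4 side were Retnla, Rnase2a, Chil3, Mgl2, Arg1, Itgax, Dcstamp, Ctsk, Cd36, Ptgs1 and Tfrc, and also Il11ra1, Klf9 and Cldn11. Chil3 stood at 111 and 153 CPM after IL-4 then LPS, overlapping its IL-4 libraries, and was higher there than in the control by 5.96 (adjusted p 1.76e-05). Retnla stood at 27.4 and 34.8 CPM, and Itgax at 598 and 549 CPM. For Retnla, Rnase2a and Itgax both libraries of IL-4 then LPS lay above both IL-4 libraries. On the other side, higher after LPS than after IL-4 yet lower after IL-4 then LPS than in the control, were 17 genes. Cd5l, a secreted inhibitor of macrophage apoptosis, was at 73.1 and 55.1 CPM after LPS, 61.8 and 60.2 CPM in the control, 16.3 and 15.6 CPM after IL-4 and 13.4 and 14.4 CPM after IL-4 then LPS (2.01 ± 0.17, adjusted p 6.79e-05). Selenop, a secreted selenium carrier, was at 1064 and 757 CPM after LPS, 1150 and 890 CPM in the control, 380 and 415 CPM after IL-4 and 366 and 384 CPM after IL-4 then LPS (1.20 ± 0.21, adjusted p 0.00276). Aif1 and Tmem176b had the same arrangement. Bcl6, a transcriptional repressor, was at 92.4 and 83.6 CPM after LPS, 42.1 and 51.6 CPM in the control, 38.1 and 43.1 CPM after IL-4 and 18.2 and 17.9 CPM after IL-4 then LPS (1.12 ± 0.15, adjusted p 0.000721), so that its level was raised with LPS alone and lowest with both agents.

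**Figure D5:**
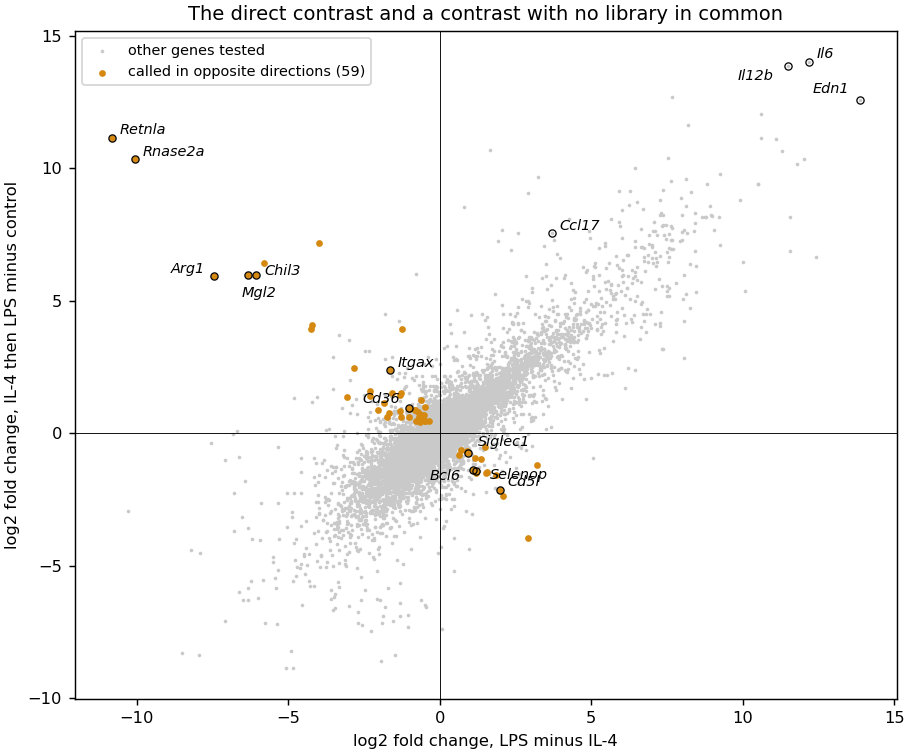
Difference of IL-4 then LPS from control (y axis, log2 fold change) against LPS minus IL-4 (x axis, log2 fold change) for the 12234 genes tested, with the 59 genes called in opposite directions in orange. Most genes lie along the rising diagonal (Pearson r 0.833), and Retnla, Rnase2a, Arg1, Mgl2 and Chil3 lie at the upper left, lower after LPS than after IL-4 and higher after IL-4 then LPS than in the control.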

How the data were processed

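RNA sequencing of 8 libraries, 2 per group, was analysed from the deposited table of raw read counts per gene. Per the submitters' processing notes, the tools were HTSeq, HISAT2 and StringTie, and the genome build was mm10. Their versions, the use of strand and the treatment of multiply matching reads are not given in the sources used here, so reads of overlapping, antisense and near-identical genes (Chil3 and Chil4, Mgl2 and Clec10a, the Rnase2a family, the Ifi200 and Gbp families, MHC genes) cannot be told apart. A further 6 count columns were not used. In each group the replicates' counts differed beyond sampling noise (chi-square per degree of freedom 19.6 to 24.4), so none was taken for a repeat deposit.

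Of 54532 genes, 33464 held no read in the 8 libraries, and 12234 were kept by filterByExpr. These held 99.84% to 99.92% of the 7924932 to 9431852 counts per library. edgeR 4.0.16 (R 4.3.3) fitted 1 mean per group over all 8 libraries after TMM scaling (common dispersion 0.0402, 4 residual degrees of freedom), and the quasi-likelihood test of LPS minus IL-4 was adjusted by the Benjamini-Hochberg method over all 12234 genes. SEs were derived from each log2 difference and its F statistic and are approximate, least exact where reads are few. Where a group held no read, the fold is a lower bound against a floor of 3 reads over its 2 libraries. Where it held 1 to 3 reads, the ratio has an exact conditional binomial (Clopper-Pearson) 95% interval. Both cover counting error only. The fit was tested on simulated counts.

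Genes were named by rule: the 12 largest called differences in each direction with at least 10 CPM in the higher group and no overlap, a panel of polarisation genes, up to 3 called members per list and direction, and the 6 genes of each group order with the largest smaller step. A few genes that this rule names are not reported here. The genes, lists and comparison were chosen with earlier results of these data known. Alternatives were other scalings and filters, the 4 libraries alone, a replicate block, DESeq2 1.42.0 and leaving out each library. The position of the control and its alternatives were added after seeing the data.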

Additional observations from a re-analysis of the deposited data

How the results depend on the processing

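With library size as the only scaling, 1621 genes were called higher after LPS and 5839 higher after IL-4, of which 1206 and 3586 at least 2-fold, and 447 and 1440 genes held the orders LPS above control above IL-4 and its reverse. With upper-quartile factors 3852 genes were called higher after IL-4, and the orders held for 519 and 1171 genes. Without each library in turn, 1947 to 2623 genes were called higher after LPS and 1475 to 2348 higher after IL-4, at least 2-fold 1622 to 1835 and 1108 to 1520. DESeq2 called 2726 and 2107. Before adjustment, 6197 genes had a p under 0.05.

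Libraries with the same number shared deviations from their group means (r 0.36 between LPS and IL-4), but with 2 numbers this does not pair them. The fit with the replicate block called 3390 genes higher after LPS and 3289 higher after IL-4. Il4ra (1.51, adjusted p 0.00522) and Mrc1 (-0.78, adjusted p 0.00151) passed in it and not in the same fit without the block. 

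The share with the control nearer to IL-4 was 96.5% (library size) and 97% (replicate block) of genes higher after LPS, and 96.1% (library size), 92.6% (no filter) and 93% (replicate block) of genes higher after IL-4, and 96.2% to 98.4% and 91.7% to 96.4% without each library.

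Differences that changed sign were Tlr4 (-0.35 with library size, -0.0456 with upper-quartile factors, 0.07 to 0.38 without each library), Clec10a (-1.17 to 0.19 without each library), Irf4 (-1.37 to 0.0503), Ccl24 (-4.62 to 1.79) and the respiratory chain gene Uqcrfs1 (0.44, and -0.14 with library size). The cause was not tested. Of 231 genes followed, 224 were called, and 170 kept direction and call in every alternative.

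With 2 libraries per group, small differences of genes with few reads could not be called, and group and exposure time cannot be told apart.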

Other observations

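Some inflammatory genes differed between the libraries of a group without LPS. In the IL-4 group Cxcl10 stood at 4.999 CPM in replicate 1 and 25.02 CPM in replicate 3, Tnf at 10.98 and 55.03, Gbp5 at 3.30 and 21.1, and Acod1 at 59.7 and 445. The control group had the same order, with Cxcl10 at 5.71 and 24.7 CPM, Tnf at 9.95 and 49.8, Gbp5 at 4.93 and 21.2, and Acod1 at 79.5 and 320. After LPS the same genes were closer between replicates, with Cxcl10 at 7620 and 7034 CPM and Gbp5 at 3187 and 3063. Replicate 3 libraries carried Y-linked reads and replicate 1 libraries Xist reads, and number, sex and any batch cannot be told apart. Other genes were uneven within the LPS group, with replicate 1 the higher: Il10 (37.2 and 6.22 CPM), Il4ra (449 and 106), Pfkfb3 (916 and 248) and Il1rn (2433 and 891). These genes were chosen after their values were seen.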
